A study of Mus musculus with 3 samples.

Results

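The 8 genes for transcription factors of the liver, Hnf4a, Foxa1, Foxa2, Foxa3, Hhex, Prox1, Onecut1 and Cebpa, were examined in the open chromatin of mouse embryonic liver. The genes were taken by name and not by a measured value, although earlier results of these data were known when they and the comparison lists were chosen. All 8 were found among the 21827 protein-coding genes of the annotation. For each gene, the listed peaks and footprints in the gene body and 50 kb on either side were taken, which gave 8 windows of 0.978 Mb in all.

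The assay was DNase-seq: accessible DNA is cut by the enzyme DNase I, and the cut ends are sequenced. The tissue was whole liver at 13.5 days of embryonic age, from mice described as WT on a C57BL/6N,129 background that carried the A20 YAC, a yeast artificial chromosome, in a single copy. The 3 libraries, biological replicates 1, 2 and 3, formed 1 group with no treatment and no control tissue. The labels give a separate biosample for each and the same donor identifier for all, so the spread between libraries may be partly technical, and it is not stated whether embryos were pooled. No contrast between conditions was therefore possible and no test was run: the values are given per library, beside those of all genes or regions.

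The 8 factors belong to the network that sets up and maintains the liver cell. Foxa1, Foxa2 and Foxa3 encode forkhead proteins, of which FOXA1 and FOXA2 are known as pioneer factors that bind closed chromatin early in liver specification. Hhex and Prox1 encode homeobox proteins needed for the outgrowth of the liver bud and the migration of hepatoblasts, and Onecut1 (also called Hnf6) encodes a cut-homeodomain factor of hepatoblasts and bile duct precursors. Hnf4a encodes a nuclear receptor that drives hepatocyte genes, and Cebpa a basic leucine zipper factor of hepatocyte metabolism that also acts in myeloid blood cells. At this age the liver is also the main site of blood formation, so hepatoblasts share the tissue with many red cell precursors.

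The libraries differed in how many intervals were listed. Replicates 1, 2 and 3 held 34369, 122281 and 60862 peaks and 89836, 342756 and 156638 footprints, the short protected stretches within accessible DNA. Read totals are not known. Peak signals moved in steps that, if a step is 1 count, put the depths at 1.00 to 3.22 to 1.62. Marker genes of cell types were counted in the same libraries. Of 12 hepatoblast genes, replicates 1, 2 and 3 listed 2, 11 and 10 promoters (16.7%, 91.7% and 83.3%), against 54.0%, 67.3% and 56.4% of all protein-coding genes. Their share was below that of all genes in replicate 1 and above it in replicates 2 and 3. Their median percentile was 0, 45.3 and 52.4, and Alb, the gene for albumin, had none in any library. Of 12 erythroid genes, 10, 12 and 12 had one, with a median percentile of 57.9, 68.0 and 79.1. Of 6 endothelial genes 1, 3 and 2 had a peak, of 6 mesenchymal genes 3, 6 and 3, of 6 myeloid genes 0, 3 and 2, and of 4 bile duct genes 1, 3 and 0. Their part in the results on the 8 factors was not tested.

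Promoters of the 8 factors fell into those listed in every library and those missed in replicate 1. Promoters reached 1000 bp to each side of the transcription start sites (TSSs) of protein-coding transcripts, and 1 counted as listed in a library where it shared 1 bp or more with a peak. Of the 8 promoters, 4, those of Foxa3, Hhex, Prox1 and Cebpa, had a peak in all 3 libraries, against 51.4% of all protein-coding genes. The promoters of Hnf4a, Foxa1 and Onecut1 had a peak in replicates 2 and 3 and none in replicate 1, and that of Foxa2 in replicate 2 alone. By library, replicates 1, 2 and 3 listed 4, 8 and 7 of the 8, against 54.0%, 67.3% and 56.4% of all genes. The 8 genes thus stood near the share of all genes in replicate 1 and above it in replicates 2 and 3. Without replicate 1, 7 of the 8 were listed in every library used. No share of all genes is given for these 2 libraries together, so this count has no comparison. With the 34369 strongest peaks of each library the counts were 4, 4 and 4, against 54.0%, 52.5% and 49.3% of all genes. Foxa3, Hhex and Cebpa were then listed in all 3 libraries, Prox1 in replicates 1 and 2, Hnf4a in replicate 3 alone, and Foxa1, Foxa2 and Onecut1 in none. In whole tissue, fewer cells of a type and less open chromatin per cell cannot be told apart, and a promoter without a listed peak is not shown to be closed.

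The signals at the promoters were mostly modest. Signal is the value the authors gave each peak, scaled per library, so libraries were set side by side by percentile, which is the share of protein-coding genes whose promoter signal was lower; genes that lack a promoter peak count as 0. Foxa3 had a signal of 4.23, 13.6 and 8.09 in replicates 1, 2 and 3, at percentile 84.4 ± 2.13 (mean ± SD, n = 3). This signal, and the rank of Foxa3 below, come from a region at the start of the neighbouring gene Sympk. The region at the Foxa3 TSS itself had none, 1.53 and 1.07. Cebpa had 1.98, 3.17 and 1.41, at 60.5 ± 2.81, and Hhex 1.88, 2.45 and 1.20, at 58.9 ± 3.16. These 3 genes lay above the median gene in every library. Prox1 had 0.672, 0.882 and 0.526, at 49.4 ± 0.521, the smallest spread of the 8. On this scale every listed promoter ranks above all genes at 0. As 54.0%, 67.3% and 56.4% of genes were listed, the percentile of a weak listed promoter has a floor. Among the peaks of each library, the stronger Prox1 region was more spread, at the 20.7, 75.0 and 35.8 percentile. For Hnf4a, replicate 1 listed none, while replicates 2 and 3 gave 0.573 and 0.644, at percentiles 44.2 and 51.2. Foxa1 had none, 0.688 and 0.457, at percentiles 46.4 and 48.0 in replicates 2 and 3. Where they were listed, Hnf4a and Foxa1 stood close to Prox1 on this scale, whose floor draws weak promoters together. Their lower means of 31.8 and 31.4 come from the missing peak in replicate 1. Onecut1 had none, 0.594 and 0.492, with a mean percentile of 31.1, and Foxa2 had 0.556 in replicate 2 alone, with a mean of 14.6. In order of mean percentile the genes ran Foxa3, Cebpa, Hhex, Prox1, Hnf4a, Foxa1, Onecut1 and Foxa2. The neighbours Cebpa and Hhex differed by less than the spread of Hhex or of Cebpa, and Hnf4a, Foxa1, Onecut1 and Foxa2 by less than theirs, which was 25.4 to 27.8. Prox1 and Hnf4a also differed by less than the spread of Hnf4a, whereas the steps from Foxa3 to Cebpa and from Hhex to Prox1 were larger than the spread of either gene.

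**Figure D1:**
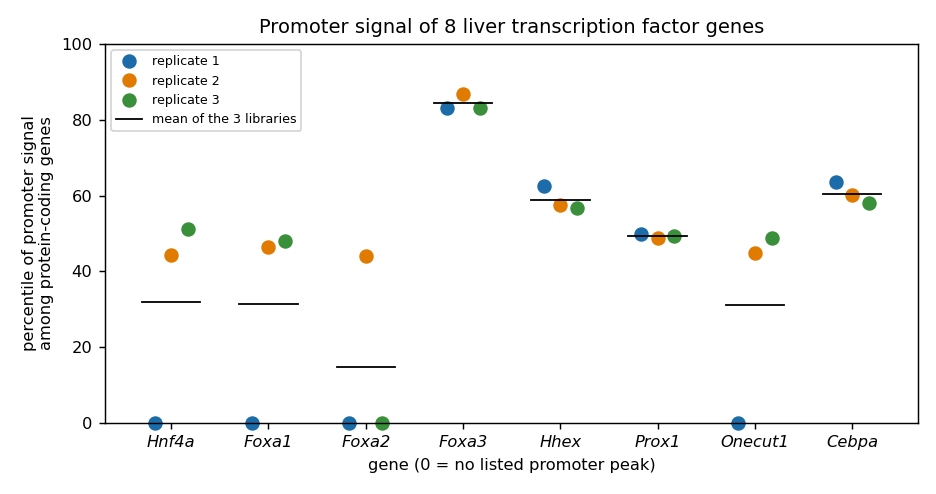
Percentile of promoter signal among protein-coding genes (y axis, 0 for a promoter without a listed peak) for each of the 8 genes (x axis) in replicates 1, 2 and 3 (points), with the mean of the 3 libraries (line). Foxa3 lies at 83.2, 86.9 and 83.2, through a region at the start of its neighbour Sympk, while Hnf4a, Foxa1, Foxa2 and Onecut1 have a point at 0 in replicate 1.

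The deposited intervals whose false discovery rate (q-value) is at most 0.05 gave the same division in replicate 1. They and the footprints come from the same libraries as the peaks, so they are no independent check. In replicate 1, no base of the Hnf4a, Foxa1, Foxa2 and Onecut1 promoters was listed, whereas 446, 1580, 316 and 296 bp were listed at Foxa3, Hhex, Prox1 and Cebpa. The peak region over the Foxa3 TSS itself held no such base and no footprint in replicate 1. In replicate 3 the Foxa2 promoter had 12 bp, with a lowest q-value of 3.85e-02, against 1652 bp in replicate 2. Footprints also followed it. Hhex had 11, 26 and 7 promoter footprints in replicates 1, 2 and 3, Foxa3 5, 11 and 8, Cebpa 2, 14 and 5, and Prox1 1, 16 and 2. These 4 of the 8 had a promoter footprint in every library, against 49.5% of all genes, and Foxa2, with 17 footprints in replicate 2, had none in the others.

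Over the 8 windows, replicates 1, 2 and 3 had 25, 110 and 45 peaks (mean 60 ± 44.4, SD, n = 3). When each library was limited to its strongest 34369 peaks, the windows held 25, 27 and 25. Peaks per 100 kb were 2.56, 11.2 and 4.60 in the windows, against 1.26, 4.49 and 2.23 over the genome. The windows are centred on genes, whereas the genome also holds sequence far from genes, so these densities are not alike. Merged where they overlapped or touched, the peaks made 105 regions, of which 18 were found in all 3 libraries, 26 in 2 and 61 in 1. The share found in all 3, 17.1%, was close to the 19.8% of all 130485 regions. Regions found in all 3 came to 1.84 per 100 kb of the windows. In windows built the same way around protein-coding genes the median was 1.97. Without replicate 1, 40 regions were found in every library used. Of the regions in 1 library, 3, 55 and 3 were in replicates 1, 2 and 3, and a further 22 were in replicates 2 and 3 but not 1. In replicate 2 the median signal was 0.351 for regions of that library alone, 0.568 for regions of 2 libraries and 2.30 for regions of all 3. The regions that only replicate 2 listed were thus weaker in it than those shared with other libraries.

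Of the 18 regions found in every library, 6 lay at a promoter of one of the 8 genes, 6 at a promoter of another gene in the window and 6 away from any TSS. All 6 of the first kind also lay within 1000 bp of a TSS of another gene, whereas 0 of the 12 regions that lay at a promoter of the 8 genes alone were found in every library. The 6 came from few loci: Hhex and Prox1 held 2 each, and Foxa3 and Cebpa 1 each. No share of promoter regions over the genome is given, so this difference has no comparison. Away from promoters 6 of 64 regions (9.38%) were found in all 3, against 11.6% of 94808 over the genome. Of the 8 genes 4, Hnf4a, Foxa2, Foxa3 and Cebpa, had at least 1 such distal region in the window, against 56.0% of all genes. Foxa3 with 5.44 and Hnf4a with 3.01 shared regions per 100 kb were above the median gene (1.97), Foxa1 and Onecut1 had none, and the others had between 0.961 and 1.95.

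**Figure D2:**
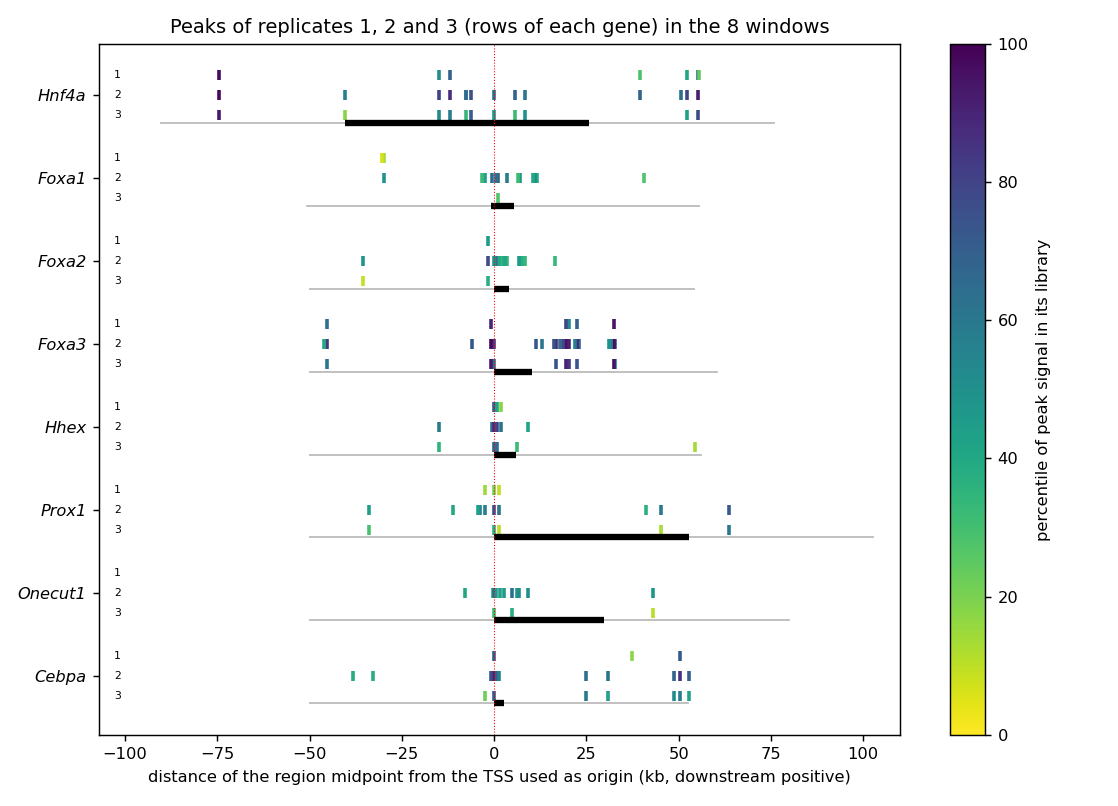
Position of each region (x axis, kb from a TSS of the gene, downstream positive) in the windows of the 8 genes, with a row for each of replicates 1, 2 and 3 and the percentile of peak signal in its library as colour; the thick line is the gene body and the thin line the window. Rows of replicate 2 hold most marks, and the Onecut1 row of replicate 1 holds none.

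Hnf4a had 15 regions in its window of 166 kb, 5 of them in all 3 libraries, and 7, 14 and 11 peaks in replicates 1, 2 and 3. The mouse gene has a promoter used in liver and a second, far upstream one used in early liver, gut and pancreas. The region at the liver promoter, chr2:163547004-163547212, overlapped the TSS and was found in replicates 2 and 3, at the 64.2 and 45.9 percentile of peaks in its library. The region over the upstream TSS, chr2:163506743-163507046, was likewise in replicates 2 and 3, with signals of 0.458 and 0.388 at the 56.4 and 18.3 percentile. Both promoters were thus listed in the same 2 libraries and in neither case in replicate 1. The sequences are shown along the strand of the gene up to the first annotated exon, in capitals where any library had a footprint.
Hnf4a liver promoter, chr2:163547004-163547154: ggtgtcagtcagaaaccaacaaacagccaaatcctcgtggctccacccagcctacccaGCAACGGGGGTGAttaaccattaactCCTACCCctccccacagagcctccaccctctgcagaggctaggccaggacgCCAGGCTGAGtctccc
Hnf4a upstream promoter, chr2:163506608-163506807: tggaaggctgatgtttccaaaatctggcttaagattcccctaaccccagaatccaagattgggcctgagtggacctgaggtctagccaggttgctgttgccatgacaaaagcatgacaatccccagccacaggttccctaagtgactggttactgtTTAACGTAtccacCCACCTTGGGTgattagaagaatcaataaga
The upstream promoter held overlapping matches to the ONECUT patterns (ATTGATT and ATCAATA) from base 190 to base 197 of the printed stretch, none of them in a footprint. One of these patterns is found in 4.09% of 32851 RefSeq promoters. In the liver promoter, replicates 2 and 3 had 2 and 1 footprints, and no match to the liver factor patterns was found in the printed bases.

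Between these promoters lay 2 intronic regions that all 3 libraries listed. The region 15056 bp before the liver TSS had signals of 1.19, 1.21 and 0.761 in replicates 1, 2 and 3, and the region 12076 bp before it 1.88, 2.15 and 0.872. The second was the stronger in every library, at the 68.4, 87.1 and 58.3 percentile of peaks, and 2 of its footprint sites recurred in all 3. It is shown because it was, by its lowest percentile over the libraries, the strongest region away from promoters in the Hnf4a window. Another, 52273 bp downstream in intergenic sequence, had 0.996, 1.15 and 0.609. In replicate 1 these distal regions were listed while the gene's own promoters were not.
Hnf4a intron, chr2:163535001-163535220: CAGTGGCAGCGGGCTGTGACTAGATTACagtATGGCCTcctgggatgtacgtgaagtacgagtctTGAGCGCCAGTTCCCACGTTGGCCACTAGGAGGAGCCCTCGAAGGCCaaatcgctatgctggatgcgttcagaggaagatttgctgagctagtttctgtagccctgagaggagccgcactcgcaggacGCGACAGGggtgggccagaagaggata
The region 6386 bp before the TSS, near a TSS of the antisense gene Hnf4aos, was listed in replicates 2 and 3 with signals of 0.945 and 1.41, above those of the liver promoter in both. Its sequence, chosen after its values were seen, held 2 matches to the CEBP pattern TTGCNNAA, at bases 121 to 128 and 191 to 198, neither in a footprint. It also held a match to the GATA pattern AGATAA, read as TTATCT at bases 52 to 57, and to the NFY pattern CCAAT at bases 180 to 184. These too lay in no footprint.
Hnf4a antisense start, chr2:163540661-163540940: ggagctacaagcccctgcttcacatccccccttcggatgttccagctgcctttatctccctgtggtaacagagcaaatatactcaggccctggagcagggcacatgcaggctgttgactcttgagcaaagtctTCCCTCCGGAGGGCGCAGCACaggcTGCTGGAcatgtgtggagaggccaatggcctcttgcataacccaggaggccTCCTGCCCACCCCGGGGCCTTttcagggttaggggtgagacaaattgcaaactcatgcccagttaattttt
The other regions found in replicates 2 and 3 lay 7530 bp before and 5547 and 8413 bp after the TSS, all in introns. The other 2 regions of all 3 libraries were the promoter of Fitm2 and 2310001K24Rik, with signals of 6.52, 14.3 and 8.02, and that of Ttpal, with 1.75, 4.41 and 2.12.

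Foxa3 had 20 regions, 6 of them in all 3 libraries, and 6, 21 and 10 peaks. The region at its own TSS, chr7:19023441-19023780, was found in replicates 2 and 3, with signals of 1.53 and 1.07, and not in replicate 1. The stronger region in its promoter window, chr7:19024201-19024460, lay 663 bp from the Foxa3 TSS and overlapped the TSS of Sympk, a gene for a pre-mRNA 3' end processing factor that is read in the other direction. That region gave the signals of 4.23, 13.6 and 8.09, so the high percentile of Foxa3 rests on a region at the start of its neighbour. With a promoter window of 500 bp, Foxa3 had no peak in replicate 1 and 3 of the 8 genes had a peak in every library. No share of all genes is given for this window.
Foxa3 promoter, chr7:19023540-19023780, minus strand: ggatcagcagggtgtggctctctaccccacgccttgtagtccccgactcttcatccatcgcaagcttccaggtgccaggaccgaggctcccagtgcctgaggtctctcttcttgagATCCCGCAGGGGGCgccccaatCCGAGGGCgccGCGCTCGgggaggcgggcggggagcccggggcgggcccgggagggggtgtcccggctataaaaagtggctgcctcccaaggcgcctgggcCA
The stretch ends just before the TSS. It held a match to the CTCF pattern AGNNGGCGC at bases 124 to 132, 7 bases of which lay in a footprint, and a match to the SP pattern GGGGCGGG at bases 177 to 184, which lay in none. Matches to the KLF pattern CCACACCC, read as GGGTGTGG at bases 10 to 17, and to the NFY pattern at bases 134 to 138 also lay in none. The other shared regions of the window were at the promoters of Mypop (5.41, 10.2 and 10.2), Mypopos (1.95, 2.75 and 1.68) and Irf2bp1 (2.82, 9.01 and 5.77 at the stronger of 2), and in an intron of Rsph6a, 45383 bp upstream (1.65, 1.46 and 0.948). A region 16857 bp downstream, in an exon of Irf2bp1, had 2.71 and 1.69 in replicates 2 and 3, at the 89.0 and 74.1 percentile of peaks, and was not listed in replicate 1. Promoters of neighbours made up most of the shared regions around Foxa3.

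Foxa2 had its only shared region outside the promoter. The region chr2:148048541-148048760, 1682 bp upstream of the nearest TSS, had signals of 1.06, 0.976 and 0.540 in replicates 1, 2 and 3, at the 45.0, 77.0 and 37.1 percentile of peaks. At the TSSs themselves all 4 regions were in replicate 2 alone, the strongest at 0.556. Its window had 1, 15 and 2 peaks, and 12 of its 14 regions were in replicate 2 alone, with signals of 0.250 to 0.556. The upstream region is shown because a footprint site of 36 bp recurred there in all 3 libraries.
Foxa2 upstream region, chr2:148048541-148048760, minus strand: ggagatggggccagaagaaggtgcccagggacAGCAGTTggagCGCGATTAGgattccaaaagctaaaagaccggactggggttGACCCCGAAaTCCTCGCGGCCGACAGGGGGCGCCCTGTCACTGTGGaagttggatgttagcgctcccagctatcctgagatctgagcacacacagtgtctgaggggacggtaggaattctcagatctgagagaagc
A match to the CTCF pattern, at bases 109 to 117, lay wholly inside that site. In promoters a CTCF pattern was found in 7.23% of the RefSeq set, and among the 44336 footprint sites that recurred in all 3 libraries in 7.03%. The match is a description of letters and not a measure of binding. With the stricter peak list or equal numbers of peaks this region was no longer found in every library. A further region 35502 bp upstream, in replicates 2 and 3 with signals of 0.375 and 0.318, held a match to the FOXA pattern.

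Foxa1 had no region in all 3 libraries, and 2, 19 and 1 peaks. Both peaks of replicate 1 lay about the promoter of the neighbour Ttc6, at signals of 0.560 and 0.437, and none at Foxa1. Of its 14 regions 11 were in replicate 2 alone, where they covered 4617 bp, with signals of 0.208 to 0.590, and 10 of them lay within 15000 bp of the TSS. The longest spanned 1489 bp over an exon. Only chr12:57545021-57545220, an intronic region 1000 bp inside the gene, was also listed in replicate 3, with signals of 0.688 and 0.457 in replicates 2 and 3. Such strings of weak regions in CpG-rich DNA were also seen at Foxa2: the median ratio of observed to expected CpG in the regions of replicate 2 alone was 0.593 at Foxa1, 0.700 at Foxa2 and 0.657 at Cebpa, and 0.291 to 0.484 at the other genes.

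Hhex had 8 regions and 3, 6 and 5 peaks. The promoter region chr19:37434461-37434940 was in all 3 libraries, with 6, 14 and 3 footprints in replicates 1, 2 and 3. A second region, 711 bp downstream, was also in all 3, with signals of 0.985, 1.15 and 1.06. Another, over the TSS of a shorter transcript, was listed in replicates 1 and 2 with 0.638 and 0.528. It held a GATA match in a footprint of replicate 2, and CEBP and FOXA matches in no footprint. No region away from promoters was in all 3 libraries at Hhex. One in an intron of Kif11, 15016 bp upstream, was listed in replicates 2 and 3 with signals of 0.493 and 0.519.

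Prox1 had 10 regions and 3, 12 and 6 peaks, and the 2 regions in all 3 libraries were its promoter regions, near TSSs of the antisense gene Prox1os. The stronger, chr1:190170501-190170840, stood at the 20.7, 75.0 and 35.8 percentile of peaks, and the other, with signals of 0.493, 0.524 and 0.332, at 9.39, 61.3 and 10.7. With the stricter list or equal numbers of peaks, neither was found in every library. Without replicate 2 the count at Prox1 was 1: at the weaker region the peaks of replicates 1 and 3, 39 and 259 bp from the TSS there, did not overlap each other and were joined through the peak of replicate 2. The strongest region away from promoters in replicates 2 and 3 lay 62178 bp downstream, beyond the end of the gene, with signals of 0.764 and 0.928 in replicates 2 and 3 and none in replicate 1. Of its 320 bases 300 are shown, as a choice made after its values were seen, because a match to the GATA pattern AGATAA in it lay in a footprint of both libraries.
Prox1 downstream region, chr1:190107061-190107360, minus strand: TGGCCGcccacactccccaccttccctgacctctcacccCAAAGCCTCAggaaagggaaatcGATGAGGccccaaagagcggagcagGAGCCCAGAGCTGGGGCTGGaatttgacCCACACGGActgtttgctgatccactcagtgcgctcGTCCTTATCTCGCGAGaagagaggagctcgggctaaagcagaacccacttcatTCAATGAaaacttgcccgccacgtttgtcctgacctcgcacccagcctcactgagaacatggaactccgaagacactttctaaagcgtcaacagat
On this strand the GATA match reads TTATCT at bases 156 to 161. A match to the FOXA pattern TGTTTGC at bases 126 to 132 lay in no footprint. Upstream, at 33990 bp, a region with 0.330 and 0.471 in replicates 2 and 3 held matches to the CEBP and ONECUT patterns that overlapped footprints of replicate 3 in part. The same region also held GATA, FOXA and further CEBP matches that lay in no footprint.

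Onecut1 had no peak in replicate 1 anywhere in its window of 130 kb, and 11 and 3 in replicates 2 and 3. The 3 regions found in both were the promoter, chr9:74861701-74861980, with signals of 0.594 and 0.492, an intronic region 4830 bp downstream with 0.563 and 0.547, and one 43123 bp downstream with 0.358 and 0.332. All 8 others were in replicate 2 alone, at 0.285 to 0.406. With equal numbers of the strongest peaks no library had a peak in the window.
Onecut1 promoter, chr9:74861701-74861920: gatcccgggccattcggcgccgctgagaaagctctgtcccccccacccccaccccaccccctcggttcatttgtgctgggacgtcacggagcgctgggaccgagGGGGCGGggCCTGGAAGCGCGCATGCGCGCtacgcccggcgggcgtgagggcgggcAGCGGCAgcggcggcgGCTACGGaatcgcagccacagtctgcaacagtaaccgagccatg
The stretch ends at the base before the TSS. Its footprints held overlapping matches to the NRF1 pattern GCGCATGCG, 1 on each strand, at bases 123 to 132, and most of an SP match at bases 105 to 112. An NRF1 pattern was found in 1.75% of RefSeq promoters and an SP pattern in 16.5%. The intronic region held a FOXA match that overlapped a footprint of replicate 3 in part.

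Cebpa had 13 regions and 3, 12 and 7 peaks. The promoter region chr7:35119101-35119380 was in all 3 libraries, at the 70.1, 90.1 and 70.8 percentile of peaks, and had 2, 10 and 5 footprints.
Cebpa promoter, chr7:35119101-35119292: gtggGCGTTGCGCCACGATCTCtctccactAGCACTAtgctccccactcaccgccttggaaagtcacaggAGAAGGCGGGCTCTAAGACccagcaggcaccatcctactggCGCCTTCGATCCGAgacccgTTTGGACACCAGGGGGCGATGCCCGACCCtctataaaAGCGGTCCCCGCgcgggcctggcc
A set of regions lay downstream, between 24748 and 52693 bp from the TSS. The region at 50288 bp, chr7:35169481-35169700, was in all 3 libraries with signals of 2.08, 1.87 and 0.872, and 2 of its footprint sites recurred in all 3. In replicate 1 it ranked above the promoter, at the 71.6 percentile of peaks, whereas in replicates 2 and 3 it ranked below it, at 85.7 and 58.3. It is shown because it was the one region away from promoters in this window that all 3 libraries listed; in replicate 3 that at 24748 bp ranked slightly higher, at 59.5.
Cebpa downstream region, chr7:35169481-35169700: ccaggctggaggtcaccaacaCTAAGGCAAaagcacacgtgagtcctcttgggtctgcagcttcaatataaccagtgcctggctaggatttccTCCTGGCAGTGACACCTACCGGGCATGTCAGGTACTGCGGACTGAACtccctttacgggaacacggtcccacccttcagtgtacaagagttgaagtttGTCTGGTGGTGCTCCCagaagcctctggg
Regions at 24748, 30928, 48830 and 52693 bp were in replicates 2 and 3, and 1 at 37306 bp was in replicate 1 alone, with 0.627. At the first of these the signals were 0.538 and 0.907. Matches to the FOXA pattern TGTTTAC lay in the regions at 24748 and 30928 bp, and an ONECUT match in that at 48830 bp.

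**Figure D3:**
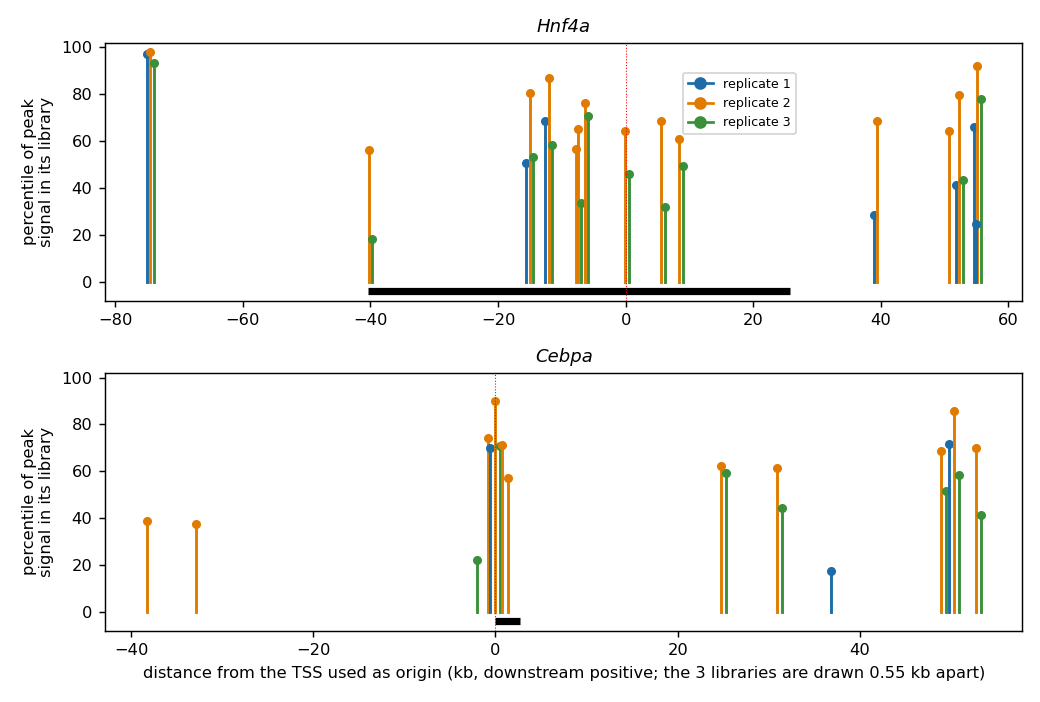
Percentile of peak signal in its library (y axis) of each region around Hnf4a and Cebpa against the distance from the TSS (x axis, kb; thick line, gene body), for replicates 1, 2 and 3, drawn side by side. Replicate 1 has no point at either Hnf4a promoter, while all 3 libraries have points at −15.1 and −12.1 kb of Hnf4a and at 50.3 kb of Cebpa.

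**Figure D4:**
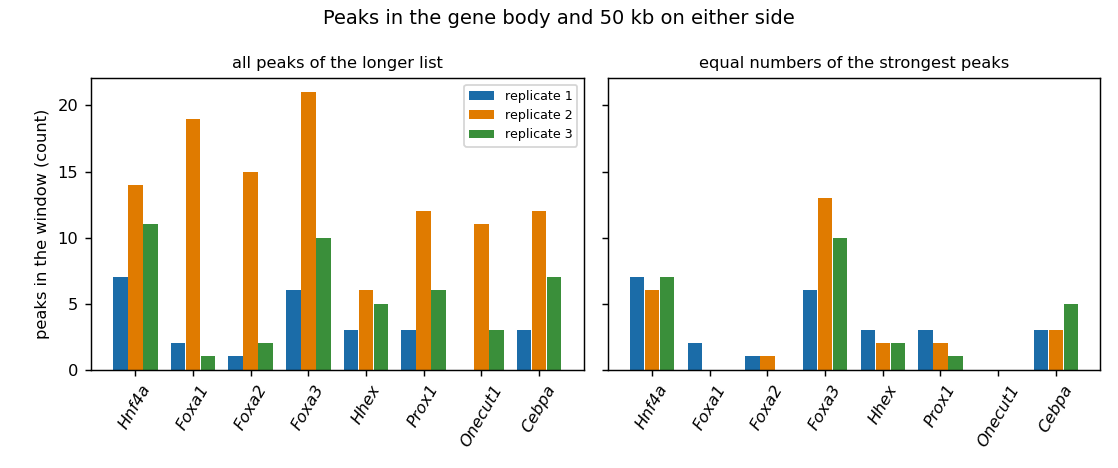
Number of peaks (y axis) in the window of each gene (x axis) for replicates 1, 2 and 3, in the full lists (left) and with the 34369 strongest peaks of each library (right). Foxa1, Foxa2 and Onecut1 have 19, 15 and 11 peaks in replicate 2 on the left and 0, 1 and 0 on the right.

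Footprints in the windows numbered 63, 344 and 114 in replicates 1, 2 and 3 (mean 174 ± 150, SD, n = 3), and 84.1%, 81.7% and 91.2% of them lay in a listed peak. Merged, they formed 394 sites, of which 34 recurred in all 3 libraries (8.63%), against 10.7% of 412673 over the genome. Foxa3 held 15 of the 34, Hnf4a 12, Hhex and Cebpa 3 each and Foxa2 1, and Foxa1, Prox1 and Onecut1 held none. Recurrent sites were thus most numerous in the windows of Foxa3 and Hnf4a, where most lay at promoters of neighbouring genes. Among these is the Sympk start, which also falls in the promoter window of Foxa3. No recurrent site lay in the region at the Foxa3 TSS or in the regions at the liver and upstream promoters of Hnf4a.

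Letters of liver factor motifs were searched in these sites, extended by 5 bp on either side, on both strands. The patterns were CAAAGTCCA or CAAAGGTCA for HNF4, TGTTTAC or TGTTTGC for FOXA, TTGCNNAA for CEBP, and ATTGATT or ATCAATA for ONECUT, where N is any base. A match to any of them was found in 3 of 394 sites (0.761%), against 0.779% of all sites of the genome. None of the 34 recurrent sites held one, against 1.03% of such sites over the genome. Of these 3 sites 2 were at Prox1 and 1 was at Onecut1. The CTCF pattern was found in 14 sites (3.55%), 6 of them at Foxa3, against 1.70% over the genome, and the NRF1 pattern in 4 (1.02%), against 0.195%. Sites of 1 window share a locus, and no test of these shares was run.

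Patterns were then searched in 200 bp around the midpoint of each region, a stretch that reaches past the ends of shorter regions. There, 19 of the 64 regions away from promoters (29.7%) had a liver factor pattern, against 15.3% of 94808 regions of the genome. Over all regions, 21 of 105 had one in this stretch, against 13.9% of 130485. None of the 18 regions found in every library had one in these 200 bp. For such regions of the genome the shares were 0.341% for HNF4, 4.19% for FOXA, 5.80% for CEBP and 0.910% for ONECUT. Outside the 200 bp, the shared Prox1 promoter region chr1:190168981-190169587 held an HNF4 match that overlapped a footprint of replicate 2 in part. In the 200 bp of the distal regions, FOXA patterns were in 10 of the 64 (15.6%), against 6.53%, and lay in the windows of all genes but Hhex. ONECUT patterns were in 4 (6.25%), against 1.78%, and CEBP patterns in 4 (6.25%), against 7.46%. The ONECUT count includes the region over the upstream Hnf4a TSS, a start that the annotation used for promoters lacks. The GATA pattern, that of factors of red cell and endodermal genes, was in 9 (14.1%), against 13.2%. In 12 RefSeq promoters of the 8 genes, each from 250 bp before to 50 bp after the start, FOXA patterns were found at Foxa1 and Prox1, 141 and 120 bp before the start, against 8.48% of 32851 promoters. HNF4 and CEBP patterns were in none of the 12, against 0.950% and 10.8%.

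Other transcription factor genes of the liver were counted in the same way. Of 30 such genes, replicates 1, 2 and 3 listed 17, 25 and 24 (56.7%, 83.3% and 80.0%), against 54.0%, 67.3% and 56.4% of all genes. In every library 17 of the 30 had one, against 51.4% of all genes, so that share was near the one over all genes. The median percentile of the 8 genes was 47.6 and 50.2 in replicates 2 and 3, that of the 30 genes 53.1 and 52.2. Those listed in every library were Cebpb, Cebpd, Dbp, Esrra, Foxo1, Gata6, Hlf, Lhx2, Mlxipl, Nfil3, Nr1h3, Nr2f6, Ppara, Rxra, Srebf1, Tbx3 and Tef. They include the relatives of Cebpa, Cebpb with 2.07, 3.36 and 1.18 and Cebpd with 1.59, 2.27 and 0.692, and, highest of the list, Esrra, a nuclear receptor of energy metabolism, with 11.4, 41.9 and 35.7. Another 6 genes, Gata4, Klf15, Nr5a2, Onecut2, Sall4 and Zhx2, had a peak in replicates 2 and 3 only, like Hnf4a, Foxa1 and Onecut1. Nr0b2 and Nr1h4, nuclear receptor genes of bile acid metabolism, had one in replicate 2 alone, like Foxa2, with 0.399 and 0.264, and Nr1i2, a nuclear receptor gene of drug metabolism, in replicate 3 alone, with 0.443. Creb3l3, Nr1i3, Nr2f2 and Zbtb20 had none in any library, whereas none of the 8 genes lacked one in all 3.

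**Figure D5:**
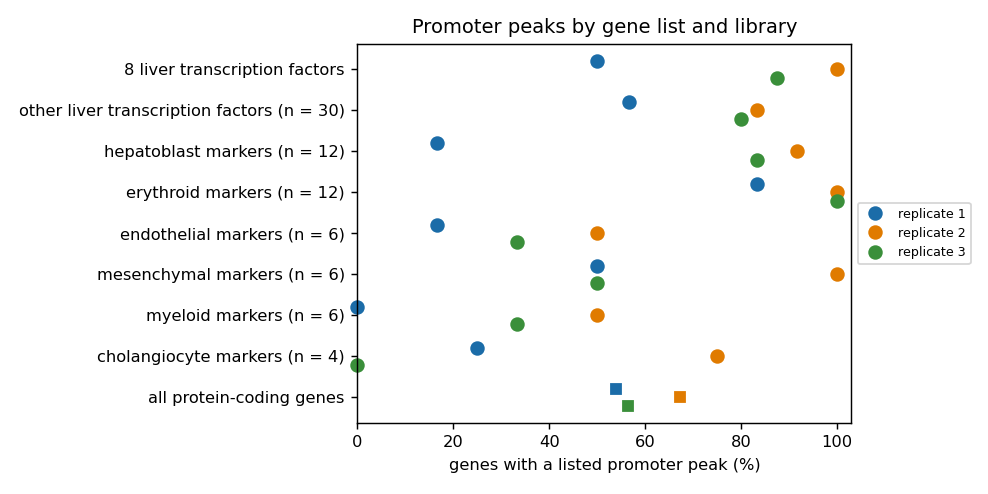
Share of genes with a listed promoter peak (x axis, %) in replicates 1, 2 and 3 for the 8 liver transcription factors, the 30 other liver factors and 6 lists of cell type markers (circles), and for all protein-coding genes (squares). Of the 8 factors 4, 8 and 7 have one, and the hepatoblast markers stand at 16.7%, 91.7% and 83.3% and the erythroid markers at 83.3%, 100% and 100%.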

How the data were processed

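DNase-seq libraries of embryonic liver (3, in 1 group) were used as deposited, on build mm10 per the labels. The authors called peaks on each library alone and deposited 2 lists per library, per the text listing deposited with it; which caller was used is not stated in the labels. Peak signal is as the authors deposited it, scaled per library; depth is unknown, so no counting interval was computed. Each deposited false discovery rate list gives a q-value per interval, at most 0.05. The footprint lists deposited by the authors hold the constant 0.01 and no score.

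The peak list with more rows was used. Genes, with 21827 protein-coding ones, came from the GENCODE M21 basic annotation, the upstream start of Hnf4a from the full one. Overlaps needed 1 bp, and peaks that touched were also joined. Percentiles were used to set libraries side by side. Regions away from promoters lay over 1000 bp from a TSS of any gene in the basic annotation. They therefore include the region over the upstream Hnf4a start. Also among them is the Onecut1 region 4830 bp downstream, whose replicate 2 peak lay 57 bp from the start of a non-coding Onecut1 transcript. Sequences are those of RefSeq (GRCm38.p6, the assembly that mm10 is), without bases of annotated UTRs of coding transcripts. Python 3.11.15, numpy 2.4.6, pysam 0.24.0 and samtools 1.23.1 were used. The interval and motif code was tested on simulated data.

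The members and lists were chosen with earlier results of these data known. Named by plan were all members, the regions at their TSSs and the strongest shared regions away from promoters. Also named were other regions, among them regions not found in every library. Only some of these are marked as chosen after their values were seen. Some listed items are not reported here. With 1 group no test was made. Alternatives were the stricter list, equal numbers of peaks, each library left out, other windows, overlaps and flanks, and another motif interval.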

Additional observations from a re-analysis of the deposited data

How the results depend on the processing

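The count of the 8 genes with a promoter peak in every library was 4, and 3 to 5 under the stricter list, equal numbers of peaks and other promoter windows, starts or overlaps. Leaving out a library gave 4 to 7, with 7 without replicate 1. No share of all genes in every library is given beside these alternative counts. The mean over libraries, 6.33, was 4 with equal numbers of peaks. Of the 30 other liver factors, 17 were listed in every library, but 11 with the stricter list. Regions found in every library, 18, numbered 17 to 40 when a library was left out and 38 with a flank of 100 kb. Recurrent footprint sites, 34, numbered 36 to 64 when a library was left out. Sites with a liver factor pattern, 3, were 7 in 31 bp around the midpoint. Of 88 alternatives per gene, 61 stayed within the limits set and 27 moved, 16 up and 11 down. The causes of these moves were not tested. By construction, leaving out a library lowers the number of libraries in which a region must be found, and a wider flank holds more sequence. No paired analysis was possible because there is 1 group. Replicate 1, with the fewest peaks, limits what can be called shared; a region it lacks is not shown to be absent.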
